A study of Mus musculus with 18 samples.

Results

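The 10 genes described here mark the base of the intestinal crypt or are switched on by Wnt signals there: Lgr5, Olfm4, Ascl2, Axin2, Sp5, Gkn3, Smoc2, Rnf43, Znrf3 and Slc12a2. They were chosen by symbol for their known place in the crypt, with earlier results of these data known, and are 10 of the 32285 gene features in the deposited matrices. They were read in 8 single-cell RNA libraries of mouse intestinal epithelium, 2 libraries in each of 4 groups. All mice were C57Bl6, 60 to 65 days old, carried the Lgr5-GFP-CreERT2 knock-in, and were analysed 5 days after a single intraperitoneal dose of 70 mg/kg tamoxifen. In the Lgr5+ sort, cells were collected by GFP expressed from the Lgr5 locus, from mice with Lgr5-GFP-CreERT2 alone (WT) or with Lgr5-GFP-CreERT2/Setdb1lox/lox (the Setdb1-KO group). In the lineage-traced sort, the mice also carried nTnG, a ROSA26 reporter that turns from tdTomato to EGFP in cells in which Cre has acted and in their offspring (Lgr5-GFP-CreERT2/nTnG, WT, and Lgr5-GFP-CreERT2/Setdb1lox/lox/nTnG, Setdb1-KO). The Cre is driven by the Lgr5 promoter, so Setdb1, a histone H3 lysine 9 methyltransferase, loses its floxed exon in Lgr5+ cells and stays lost in their descendants. The knock-in allele is expressed in a mosaic of crypts and disrupts the Lgr5 allele that carries it, in every group. Sort, reporter allele and experiment go together and cannot be told apart. The comparisons ask how these genes differed between Setdb1-KO and WT in each sort, and between the sorts. The lineage-traced sort holds labelled stem cells as well as their offspring.

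Wnt ligands at the crypt base bind Frizzled and LRP receptors, which lets beta-catenin accumulate, enter the nucleus and activate target genes with TCF/LEF factors. The loop is tuned by its own products: Lgr5 binds R-spondins, R-spondins restrain the membrane ubiquitin ligases Rnf43 and Znrf3 that remove Frizzled from the cell surface, and Axin2 is a scaffold of the complex that degrades beta-catenin. Ascl2 is a transcription factor on which the stem cell state depends, Sp5 is a zinc finger factor induced by Wnt, Olfm4 and Gkn3 encode secreted proteins used as crypt base markers, Smoc2 encodes a secreted matrix protein, and Slc12a2 encodes the basolateral sodium-potassium-chloride cotransporter of crypt cells.

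In the GENCODE annotation of GRCm38, the build of the files (mm10), all 10 are protein-coding genes. Lgr5 lies on chr10:115450311-115587780 on the minus strand, Ascl2 on chr7:142966829-142969264 (minus), Gkn3 on chr6:87383256-87388935 (minus) and Znrf3 on chr11:5276324-5444847 (minus). On the plus strand lie Axin2 at chr11:108920349-108950783, Rnf43 at chr11:87662722-87735539, Sp5 at chr2:70474923-70477729, Olfm4 at chr14:79984081-80023139 and Smoc2 at chr17:14279506-14404790.  Olfm4 and Rnf43 each overlap 1 other annotated gene on the same strand (Gm6999 and 1110028F11Rik). How reads in the shared part were assigned was not tested. Promoter sequence, from 250 bases before to 50 bases after the start in RefSeq on GRCm38.p6, was given for 6 of the 10 genes: Sp5, Gkn3, Ascl2, Rnf43, Axin2 and Olfm4. It was searched on both strands for CTTTGAT (reverse complement ATCAAAG), a form of the site bound by TCF/LEF factors. The letters were found in 1 of the 6, Sp5, 104 bases before the start, and in 3.73% of all 32851 promoters of this length. Shown are Sp5, with the match in capitals, Axin2, a textbook Wnt target with no match in this window, and Olfm4, the gene of the list with the largest difference between genotypes in the Lgr5+ sort. A match is a description of the letters and not of binding.
Sp5 promoter, chr2:70474673-70474972, plus strand: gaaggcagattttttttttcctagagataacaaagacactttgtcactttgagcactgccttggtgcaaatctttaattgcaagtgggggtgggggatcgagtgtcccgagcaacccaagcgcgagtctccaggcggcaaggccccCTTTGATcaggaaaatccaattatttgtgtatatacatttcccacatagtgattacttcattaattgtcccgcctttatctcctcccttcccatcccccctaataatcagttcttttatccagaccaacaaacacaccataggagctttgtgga
Axin2 promoter, chr11:108920099-108920398, plus strand: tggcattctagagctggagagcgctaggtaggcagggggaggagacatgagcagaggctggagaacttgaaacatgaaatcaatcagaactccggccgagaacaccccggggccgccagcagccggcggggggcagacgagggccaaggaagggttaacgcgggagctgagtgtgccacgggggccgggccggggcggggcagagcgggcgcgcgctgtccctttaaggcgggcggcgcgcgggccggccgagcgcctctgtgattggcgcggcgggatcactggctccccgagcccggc
Olfm4 promoter, chr14:80000052-80000351, plus strand: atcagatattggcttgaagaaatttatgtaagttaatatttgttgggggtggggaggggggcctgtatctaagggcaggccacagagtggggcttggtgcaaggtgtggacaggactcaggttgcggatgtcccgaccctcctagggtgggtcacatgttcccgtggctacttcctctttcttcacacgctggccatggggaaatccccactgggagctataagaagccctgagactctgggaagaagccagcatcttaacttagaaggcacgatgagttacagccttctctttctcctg

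Values are unique molecular identifiers (UMIs, each counting 1 captured mRNA molecule at its 3′ end) given per 1000000 UMIs of the library (CPM), summed over barcodes with 1000 (Lgr5+ sort) or 500 (lineage-traced sort) to 18000 UMIs and under 5% mitochondrial UMIs. The libraries kept 2894 to 11423 barcodes. The median barcode held 4686 to 9336 UMIs in the Lgr5+ sort and 961 to 2085 in the lineage-traced sort, so the latter libraries limit the precision of the rarer genes. Any pair of libraries shared 3 to 34 barcodes, at most 0.449% of the smaller library. The lineage-traced WT libraries stood apart: Paneth cell markers made up 36.5% and 38.3% of the UMIs in their near-empty barcodes (free RNA), against 15.7% and 15.8% in lineage-traced Setdb1-KO and 4.13% to 7.73% in the Lgr5+ sort. Of their kept barcodes, 15.1% and 53.0% looked like free RNA, against 4.94% and 16.2% in lineage-traced Setdb1-KO. The cuts for calling a barcode free RNA or Paneth-like rose with this Paneth share, so both were highest in lineage-traced WT. The labels call all cells stem cells, but markers of goblet, Paneth, enterocyte, tuft and enteroendocrine cells were present in all 8 libraries. Setdb1 itself read 11.3 and 9.93 CPM in Lgr5+ WT and 5.32 and 6.21 CPM in Lgr5+ Setdb1-KO, and 6.11 and 4.21 in lineage-traced WT against 10.4 and 7.85 in Setdb1-KO. Counting at the 3′ end does not read the deleted exon, so these levels check no label, and the GFP feature, with 0 to 21 UMIs over the kept barcodes of a library, checks none either.

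In the Lgr5+ sort, Olfm4 and Rnf43 were lower in Setdb1-KO than in WT, and 9 of the 10 genes had both Setdb1-KO libraries below both WT libraries, as had 24.6% of all genes tested. Olfm4, the most deeply counted of them, was at 3211 and 2892 CPM in the WT libraries and at 1744 and 1479 CPM in Setdb1-KO. Rnf43 was at 27.4 and 22.7 CPM in WT and at 17.1 and 15.3 CPM in Setdb1-KO. For both genes the WT and Setdb1-KO libraries did not overlap. In the quasi-likelihood F test of edgeR, with p-values adjusted by Benjamini-Hochberg across every gene tested, Olfm4 fell by 0.91 on the log2 scale (SE 0.118, adjusted p = 0.024) and Rnf43 fell by 0.62 (SE 0.0926, adjusted p = 0.0343). These were 2 of the 10 genes, where the same test called 1.34% of the 13662 genes tested. Both calls were lost when WT replicate 1 was left out (adjusted p = 0.0538 for Olfm4 and 0.0901 for Rnf43) and when all 8 libraries shared 1 estimate of the spread (0.0877 and 0.0839). The Olfm4 call was also lost without Setdb1-KO replicate 1 (0.105) or 2 (0.103), and the Rnf43 call without Setdb1-KO replicate 1 (0.068) or with no filter on low counts (0.095).

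**Figure D1:**
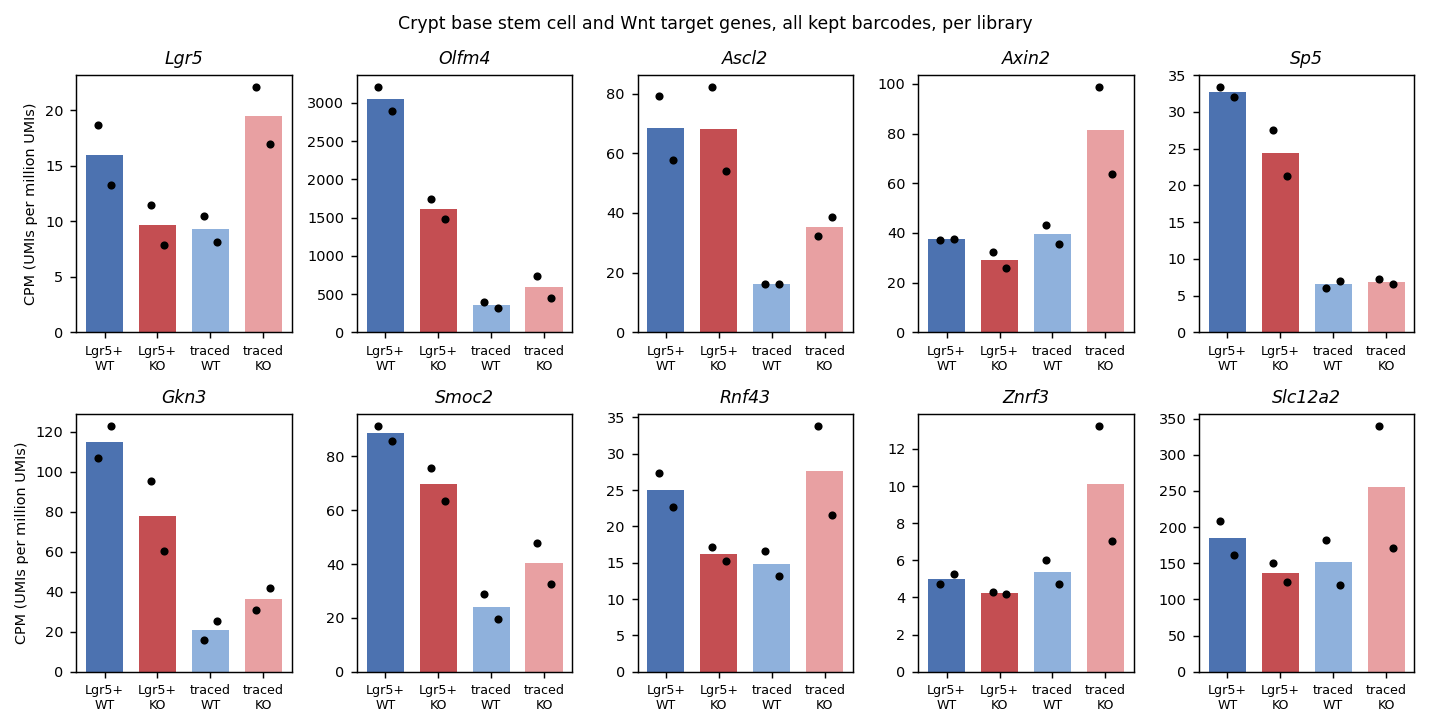
Level of each gene in CPM (UMIs per 1000000, linear axis from 0) over all kept barcodes. Bars are the mean of 2 libraries and points are the libraries. In the Lgr5+ sort Olfm4 sat at 2892 to 3211 CPM in WT and 1479 to 1744 CPM in Setdb1-KO, while in the lineage-traced sort both Setdb1-KO libraries lay above both WT libraries for 8 of 10 genes, a pattern shared by 62.4% of all genes tested.

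Among the receptor and feedback genes, Lgr5 was at 18.6 and 13.3 CPM in Lgr5+ WT and at 11.5 and 7.86 CPM in Setdb1-KO, a difference of -0.73 on the log2 scale (SE 0.176) that did not pass the test (edgeR adjusted p = 0.106). Axin2 was at 37.1 and 37.8 CPM in WT and at 32.2 and 25.8 CPM in Setdb1-KO (log2 fold change -0.37, SE 0.102, edgeR adjusted p = 0.133). Znrf3, the scarcest of the list with 118 to 256 UMIs a library, was at 4.7 and 5.26 CPM in WT and at 4.27 and 4.17 CPM in Setdb1-KO (log2 fold change -0.23, SE 0.162). The 2 genotypes did not overlap for each of the 3 genes, without a call.

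Of the transcription factors, Ascl2 was the one gene of the list whose genotypes overlapped in this sort, at 79.3 and 57.8 CPM in WT and at 82.3 and 53.9 CPM in Setdb1-KO (log2 fold change -0.01, SE 0.173). Its replicates differed more than its genotypes, and replicate 1 was the higher library in both. Sp5 was at 33.4 and 32.0 CPM in WT and at 27.6 and 21.3 CPM in Setdb1-KO (log2 fold change -0.42, SE 0.104, edgeR adjusted p = 0.111).

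Of the secreted crypt base proteins, Gkn3 was at 107 and 123 CPM in WT and at 95.4 and 60.6 CPM in Setdb1-KO (log2 fold change -0.57, SE 0.181, edgeR adjusted p = 0.178). Smoc2 was at 91.2 and 85.8 CPM in WT and at 75.7 and 63.5 CPM in Setdb1-KO (log2 fold change -0.34, SE 0.0775, edgeR adjusted p = 0.0926). The transporter Slc12a2 was at 209 and 162 CPM in WT and at 150 and 124 CPM in Setdb1-KO (log2 fold change -0.42, SE 0.107, edgeR adjusted p = 0.116). In all 3 the lowest library was Setdb1-KO replicate 2. Without that library the log2 fold changes were -0.33 for Gkn3, -0.28 for Smoc2 and -0.35 for Slc12a2, and Gkn3 was called without the other Setdb1-KO library (-0.86, edgeR adjusted p = 0.0432). The median log2 fold change of the 10 genes was -0.42, against -0.01 over all genes tested. DESeq2 on the same sums called 5 of the 10, adding Lgr5 (adjusted p = 0.0108), Slc12a2 (0.0103) and Smoc2 (0.0465), where it called 3.67% of all genes.

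The mix of cells also differed between the genotypes of this sort. Cells without the markers of any differentiated type made up 70.5% and 70.9% of the WT libraries and 58.6% and 63.6% of the Setdb1-KO libraries. In bulk sums, fewer cells of a type and less RNA per cell cannot be told apart. The 11 enterocyte markers were detected in every library and summed to 1952 and 2173 CPM in WT and to 4943 and 3058 CPM in Setdb1-KO. The 13 enteroendocrine markers summed to 1060 and 1494 CPM in WT and to 4748 and 2161 CPM in Setdb1-KO, with 1 marker at 0 in 1 Setdb1-KO library. The 10 Paneth markers, all detected, set 1 library apart, at 9368 and 10903 CPM in WT, 8885 CPM in Setdb1-KO replicate 1 and 34061 CPM in Setdb1-KO replicate 2. T cell and other blood cell markers, 9 in all, summed to 121 and 170 CPM in WT and to 18 and 14 CPM in Setdb1-KO, with 1 marker at 0 in 1 Setdb1-KO library. How far these shifts set the sums was not tested, but the genes were also read within each class of cells.

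Classes were set per barcode by summed marker UMIs, and none of the 10 genes served as a marker. A barcode low in the markers of every differentiated type was called undifferentiated, and this class was divided by its mitotic markers. In the Lgr5+ WT libraries the non-dividing undifferentiated cells held the highest mean level of 7 of the 10 genes: Olfm4 at 4734 ± 363 CPM (SD, n = 2 libraries here and below), Slc12a2 at 256 ± 64.1, Gkn3 at 188 ± 13.8, Axin2 at 50.6 ± 1.05, Sp5 at 49.0 ± 2.37, Rnf43 at 36.3 ± 5.2 and Lgr5 at 25.3 ± 7.86 CPM. Barcodes of mixed markers or free RNA are left out of this order. For Olfm4, Gkn3, Axin2, Sp5 and Rnf43 the libraries of this class did not overlap those of the next class in order. The dividing undifferentiated cells followed in Olfm4 (3247 ± 326 CPM), Gkn3 (107 ± 8.81), Axin2 (44.0 ± 1.96), Sp5 (33.6 ± 2.13) and Rnf43 (25.0 ± 3.5).

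**Figure D2:**
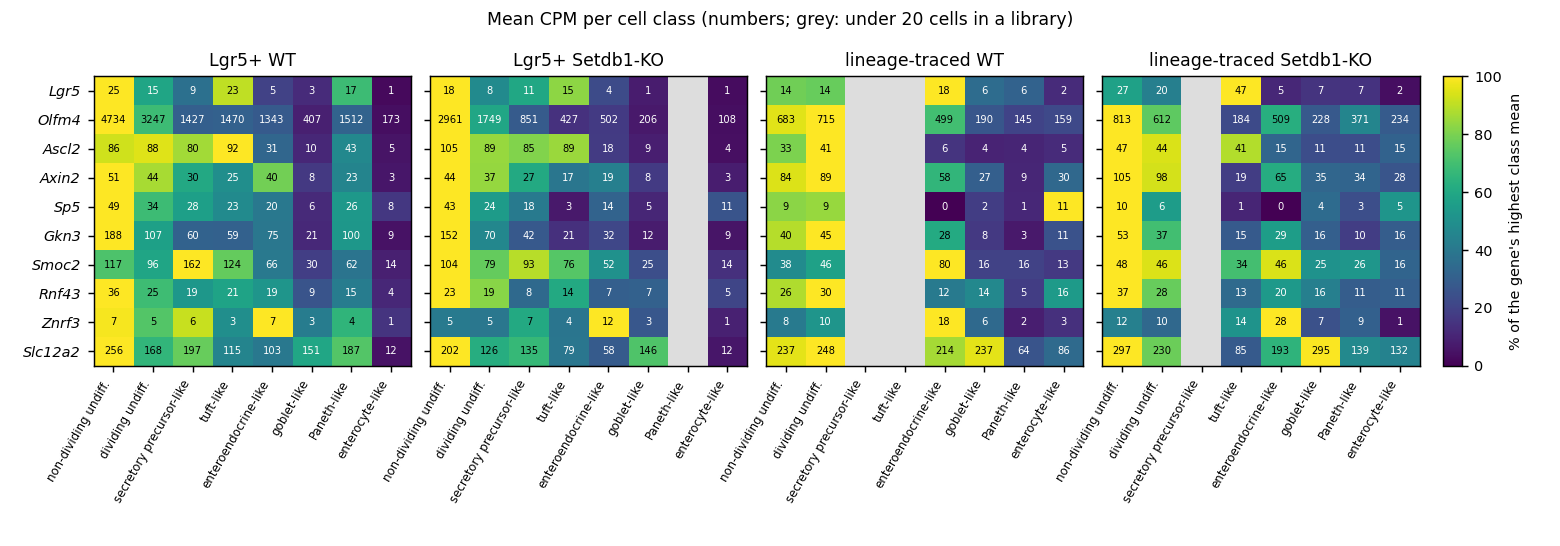
Mean CPM of each gene (rows, numbers in cells) in each cell class (columns) of the 4 groups, with colour as a percent of the gene's highest class in that group. Grey columns had under 20 cells in a library. In Lgr5+ WT, Olfm4 ran from 4734 CPM in non-dividing undifferentiated to 173 CPM in enterocyte-like cells.

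Some of the genes were not confined to the undifferentiated cells. Tuft-like cells (Dclk1, Trpm5, Avil and other markers), a chemosensory type, held Lgr5 at 22.9 ± 2.17 CPM and Ascl2 at 92.4 ± 2.0 CPM in Lgr5+ WT, with both classes of undifferentiated cells overlapping them for Ascl2 (85.9 ± 17.4 and 88.1 ± 22.0 CPM). Smoc2 was highest in secretory precursor-like cells (Dll1, Atoh1, Sox4, Dll4, Hes6), at 162 ± 3.27 CPM, above tuft-like cells at 124 ± 13.6 CPM without overlap. Slc12a2 was at 151 ± 15.1 CPM in goblet-like cells, whose libraries overlapped those of the dividing undifferentiated cells (168 ± 30.7 CPM). Znrf3 had class means between 1.01 and 6.66 CPM in the epithelial classes. Enterocyte-like cells held the lowest level of Lgr5 (0.687 ± 0.393 CPM), Ascl2 (4.78 ± 0.974), Axin2 (3.0 ± 0.766), Slc12a2 (12.4 ± 0.324) and Olfm4 (173 ± 48.1) among the epithelial classes. Paneth-like barcodes of the Lgr5+ sort numbered 14 to 227 a library and had a median of 11060 to 14144 UMIs, above the library medians; doublets among them were not resolved.

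Within the classes of the Lgr5+ sort, Olfm4 again stood lower in Setdb1-KO. In dividing undifferentiated cells it was at 3478 and 3016 CPM in WT and at 1870 and 1628 CPM in Setdb1-KO (log2 fold change -0.88, SE 0.0984, edgeR adjusted p = 0.00862), 1 of 10 genes called where 0.758% of all genes were. This call needed both WT libraries (adjusted p = 0.213 without replicate 1 and 0.193 without replicate 2). In non-dividing undifferentiated cells it was at 4991 and 4478 CPM in WT and at 3344 and 2578 CPM in Setdb1-KO, a difference of -0.66 (SE 0.132) just short of the threshold (edgeR adjusted p = 0.0534). It was called under 8 of the 11 alternatives, among them DESeq2 (1.3e-05), library totals (0.00441), no filter (5.5e-08), doublets removed (0.0456) and a marker threshold 1.5 times as high (0.042). It was also called without either WT library. It was not called with DESeq2 size factors in edgeR or without either Setdb1-KO library. Without a library the log2 fold change ran from -0.84 to -0.50. Rnf43 was the 1 gene of 10 called there, at 40.0 and 32.6 CPM in WT and at 25.0 and 21.7 CPM in Setdb1-KO (log2 fold change -0.62, SE 0.111, edgeR adjusted p = 0.0363), with a background of 1.41%. Without WT replicate 1 its adjusted p was 0.0777.

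The other genes did not pass the test in these classes. Lgr5 was at 30.8 and 19.7 CPM in WT and at 22.1 and 13.5 CPM in Setdb1-KO in non-dividing undifferentiated cells, where the libraries overlapped, and at 17.4 and 12.4 CPM against 10.0 and 6.97 CPM in dividing ones, where they did not. Ascl2 was at 98.2 and 73.6 CPM in WT and at 132 and 77.1 CPM in Setdb1-KO in the non-dividing cells, the one positive log2 fold change there (0.29, SE 0.206). The paper describes the mature enterocytes and the mature secretory and tuft cells of this sort as co-purified cells without GFP. Whether Setdb1 was lost in them was not tested here. Tuft-like cells showed the widest gap in Olfm4, 1481 and 1459 CPM in WT and 201 and 654 CPM in Setdb1-KO (log2 fold change -1.71, SE 0.402, edgeR adjusted p = 0.419), from 85 to 311 cells a library. Sp5 in the same cells was at 16.9 and 29.9 CPM in WT and at 1.34 and 4.57 CPM in Setdb1-KO. It passed the filter on low counts through the WT libraries alone, so no fold change is given. None of the genes tested was called in tuft-like (9 tested, background 0.0472%), enteroendocrine-like (8 tested, 0.0489%), goblet-like (10 tested, 0.379%), enterocyte-like (8 tested, 0.33%) or secretory precursor-like cells (6 tested, 0.153%). Over the 7 classes 2 of 61 tests of these genes were called.

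In the lineage-traced sort, none of the 10 genes was called between Setdb1-KO and WT, where edgeR called 8.73% of 12205 genes, and 2 of the 10 had an unadjusted p under 0.05, beside 20.3% of all genes tested. In CPM, both Setdb1-KO libraries lay above both WT libraries for 8 genes, a pattern that 62.4% of all genes tested shared. The mix of cells differed too. Undifferentiated cells made up 41.7% and 21.6% of the kept barcodes in WT and 66.8% and 60.3% in Setdb1-KO. Enterocyte-like cells made up 15.9% and 9.66% against 2.87% and 3.86%. These totals include the free-RNA barcodes. With those left out, undifferentiated cells were 3281 of 6676 and 839 of 1826 in WT, and 3219 of 4578 and 6175 of 8582 in Setdb1-KO. Enterocyte-like cells were 1248 and 375 in WT, and 138 and 395 in Setdb1-KO, of the same totals. The Paneth markers, all 10 detected in every library, summed to 343368 and 317045 CPM in WT and to 73860 and 49958 CPM in Setdb1-KO, and the part of this mix in the CPM of the 10 genes was not tested. TMM scaling, which sets the typical gene to no change, moved the median of all genes from 0.54 (library totals) to 0.01 on the log2 scale. On library totals, 9 of the 10 genes were called higher in Setdb1-KO, all but Sp5, where 27.2% of all genes tested were. Higher genes made up 87.1% of all calls on that scale and 17.6% with TMM. Relative to the median of all genes on that scale, the 10 genes lay between -0.45 (Sp5) and 0.60 (Ascl2).

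**Figure D3:**
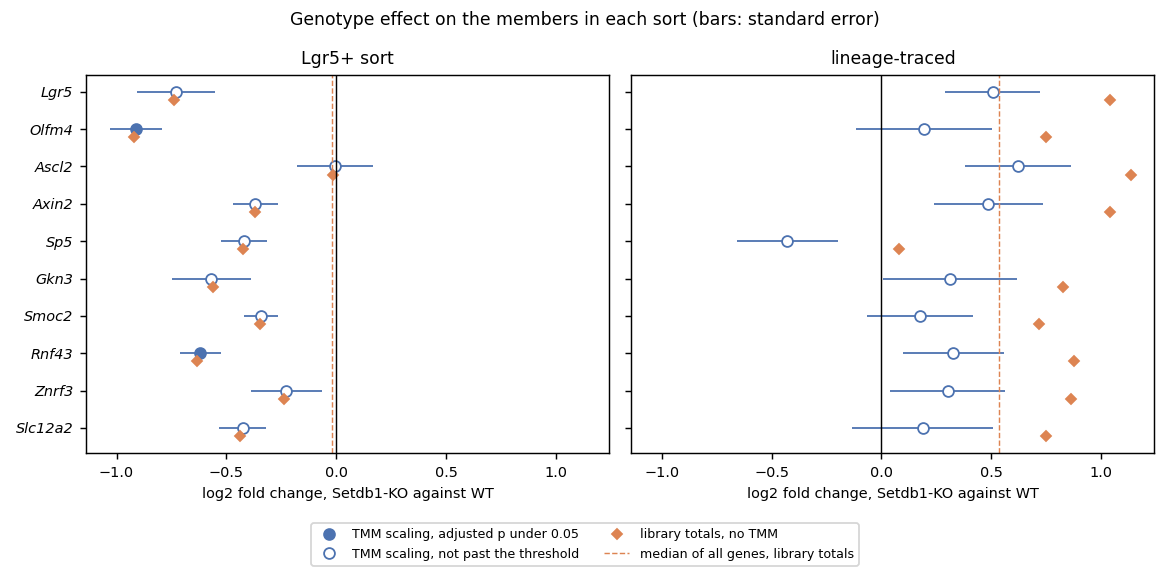
Log2 fold change, Setdb1-KO against WT, of each gene in each sort. Circles with SE bars use TMM scaling (filled where adjusted p is under 0.05), diamonds use library totals, and the dashed line marks the median of all genes on library totals. In the Lgr5+ sort the 2 scalings nearly coincide. In the lineage-traced sort the diamonds lie above the dashed line at 0.54 for every gene but Sp5, which lies below it.

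Axin2 had the widest gap in CPM among the feedback genes, at 43.1 and 35.8 in lineage-traced WT and at 98.8 and 63.8 in Setdb1-KO (log2 fold change 0.49, SE 0.247, edgeR adjusted p = 0.297). Lgr5 was at 10.5 and 8.17 CPM in WT and at 22.1 and 16.9 CPM in Setdb1-KO (log2 fold change 0.51, SE 0.217, edgeR adjusted p = 0.207), from 66 to 453 UMIs a library. Rnf43 was at 16.6 and 13.1 CPM in WT and at 33.8 and 21.5 CPM in Setdb1-KO (log2 fold change 0.33, SE 0.23), and Znrf3 at 6.01 and 4.7 CPM against 13.2 and 7.03 CPM (0.30, SE 0.263). In these 4 genes Setdb1-KO replicate 1 was the highest library and the genotypes did not overlap.

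Ascl2 was at 16.1 and 16.2 CPM in WT and at 32.3 and 38.5 CPM in Setdb1-KO, with the largest log2 fold change of the list (0.62, SE 0.241, edgeR adjusted p = 0.159). Without Setdb1-KO replicate 1 it was called (0.86, edgeR adjusted p = 0.00813). Sp5, at 6.01 and 7.05 CPM in WT and at 7.23 and 6.54 CPM in Setdb1-KO, was the one gene with a negative log2 fold change (-0.43, SE 0.232, edgeR adjusted p = 0.333), and on library totals this was 0.08. Olfm4 was at 396 and 316 CPM in WT and at 742 and 456 CPM in Setdb1-KO (0.19, SE 0.308), Gkn3 at 16.0 and 25.5 against 30.7 and 41.9 CPM (0.31, SE 0.305), and Smoc2 at 28.8 and 19.5 against 47.8 and 32.6 CPM (0.18, SE 0.241). Slc12a2 overlapped, with 183 and 120 CPM in WT and 340 and 171 CPM in Setdb1-KO (0.19, SE 0.321). Leaving out the barcodes that looked like free RNA, a choice made after the data were seen, still gave no call among the 10.

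Within the lineage-traced classes no gene was called in non-dividing (10 tested, background 3.55%) or dividing undifferentiated cells (10 tested, 1.92%). Lgr5 in the non-dividing cells was at 15.3 and 13.4 CPM in WT and at 29.5 and 24.2 CPM in Setdb1-KO (log2 fold change 0.86, SE 0.307, edgeR adjusted p = 0.137), and Olfm4 at 743 and 623 CPM in WT and at 992 and 634 CPM in Setdb1-KO, overlapping. In dividing cells Olfm4 read 784 and 646 CPM in WT and 734 and 491 CPM in Setdb1-KO, so the genotypes overlapped there too. No gene was called in goblet-like (9 tested, 1.91%), Paneth-like (7 tested, 5.69%) or enteroendocrine-like cells (2 tested, 4.53%). The Paneth-like barcodes had medians of 8797.5 and 7367 UMIs in WT but 1396 and 1573 in Setdb1-KO. Their marker cut was also higher in WT, so this class did not compare like barcodes between genotypes. In enterocyte-like cells 1 of 6 was called, where 33.2% of all genes were: Rnf43 (log2 fold change -1.40, SE 0.571, edgeR adjusted p = 0.0455), from 36 and 7 UMIs in WT and 4 and 4 UMIs in Setdb1-KO, whose CPM overlapped (20.2 and 12.1 against 18.5 and 3.61). It was not called by DESeq2 (0.606), on library totals (0.0932), with no filter (0.122) or without WT replicate 1 (0.686), WT replicate 2 (0.164) or Setdb1-KO replicate 2 (0.873), and it was too low to be tested with doublets removed or with the higher marker threshold.

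Between the sorts, lineage-traced WT cells held less Olfm4, Gkn3, Sp5, Ascl2 and Smoc2 than WT cells of the Lgr5+ sort. In WT, undifferentiated cells made up 70.5% and 70.9% of the kept barcodes in the Lgr5+ sort but 41.7% and 21.6% in the lineage-traced sort. With free-RNA barcodes left out, they were 3360 of 4748 and 4350 of 6109 against 3281 of 6676 and 839 of 1826. The class cuts followed each library's free RNA, so they differed between the sorts. The part of this shift in the sums was not tested. In the joint edgeR fit of all 8 libraries, 7 of the 10 genes were called in WT, lineage-traced against Lgr5+ sort, where 51.0% of 13781 genes were called. Of these, 5 were lower in the traced cells and 2 were higher. Olfm4 fell by 2.39 on the log2 scale (SE 0.249, adjusted p = 2.3e-05), from 3211 and 2892 CPM to 396 and 316 CPM. Gkn3 fell by 1.79 (SE 0.293, adjusted p = 0.000419), Sp5 by 1.64 (SE 0.165, adjusted p = 1.7e-05), Ascl2 by 1.37 (SE 0.221, adjusted p = 0.000376) and Smoc2 by 1.15 (SE 0.186, adjusted p = 0.000373). Each of these 5 was also called lower on library totals, as were 6625 of the 13781 genes. The libraries of the 2 sorts did not overlap for them. How many of all genes did so between the sorts was not counted.

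Axin2 rose by 0.78 (SE 0.17, adjusted p = 0.00265) and Znrf3 by 0.83 (SE 0.236, adjusted p = 0.0117) with TMM scaling. Their CPM hardly differed, Axin2 at 37.1 and 37.8 in Lgr5+ WT against 43.1 and 35.8 in the traced cells, and on library totals the fold changes were 0.08 (adjusted p = 0.765) and 0.13 (adjusted p = 0.721). The median of all genes lay at -0.66 on library totals and at 0.04 with TMM, so the rise is one relative to the typical gene. Higher genes made up 51.7% of all calls with TMM and 16.1% on library totals. Lgr5 (log2 fold change -0.04, SE 0.194), Rnf43 (-0.03, SE 0.168) and Slc12a2 (0.42, SE 0.258, adjusted p = 0.197) were not called with TMM. On library totals Lgr5 (-0.75, adjusted p = 0.0196) and Rnf43 (-0.74, adjusted p = 0.0121) were called lower. Leaving out Lgr5+ WT replicate 1 (adjusted p = 0.08) or lineage-traced WT replicate 1 (0.195) ended the Znrf3 call.

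In Setdb1-KO, all 10 genes were called between the sorts, against a background of 50.9%, of which 49.2% were higher with TMM and 35.5% on library totals. Olfm4 (log2 fold change -1.27, SE 0.241), Sp5 (-1.63, SE 0.16), Gkn3 (-0.87, SE 0.279), Ascl2 (-0.72, SE 0.21) and Smoc2 (-0.63, SE 0.181) were lower in the traced cells. Axin2 (1.65, SE 0.171), Znrf3 (1.36, SE 0.222), Lgr5 (1.20, SE 0.186), Slc12a2 (1.04, SE 0.26) and Rnf43 (0.92, SE 0.164) were higher, with CPM of Lgr5 at 11.5 and 7.86 in the Lgr5+ sort and at 22.1 and 16.9 in the traced cells. Olfm4, Sp5, Gkn3, Ascl2 and Smoc2 were thus called lower in both genotypes. Without Lgr5+ Setdb1-KO replicate 1 the calls of Ascl2 (adjusted p = 0.131), Gkn3 (0.15) and Smoc2 (0.0668) were lost, and without lineage-traced Setdb1-KO replicate 1 those of Ascl2 (0.0747) and Gkn3 (0.126).

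The differences between the sorts were also present inside the classes of the WT libraries. In non-dividing undifferentiated cells 6 of 10 genes were called (background 41.8%): Olfm4 (log2 fold change -2.68, SE 0.249), Sp5 (-2.21, SE 0.24), Gkn3 (-2.16, SE 0.319), Smoc2 (-1.43, SE 0.227) and Ascl2 (-1.28, SE 0.267) were lower in the traced cells, and Axin2 was higher (0.83, SE 0.195). In dividing undifferentiated cells, with the same background of 41.8%, 8 of 10 were called, with Znrf3 (0.96, SE 0.314) and Slc12a2 (0.67, SE 0.239) joining Axin2 (1.13, SE 0.198) on the higher side. On library totals neither Znrf3 (edgeR adjusted p = 0.0654) nor Slc12a2 (0.0764) was called there. In enterocyte-like cells 3 of 8 passed the threshold, where 50.5% of genes were called. Axin2 and Rnf43 entered the test only through libraries where they were high, so only Slc12a2 is read as higher in the traced sort. Slc12a2 rose by 3.02 on the log2 scale (SE 0.389), from 12.7 and 12.2 CPM to 108 and 64.1 CPM. Axin2, at 6 and 11 UMIs in the Lgr5+ WT libraries and 64 and 14 UMIs in the traced ones, and Rnf43, at 10 and 12 against 36 and 7 UMIs, lay under the filter on low counts in both Lgr5+ WT libraries and over it in both traced WT libraries, so they were tested through libraries other than the Lgr5+ WT ones and no fold change is given. The free RNA of the traced WT libraries held Axin2 at 21.6 and 13.0 CPM, Slc12a2 at 110 and 60.1 CPM and Rnf43 at 9.46 and 7.82 CPM. That of the Lgr5+ WT libraries held more of each, Axin2 at 27.7 and 23.6 CPM, Slc12a2 at 126 and 80.5 CPM and Rnf43 at 12.0 and 9.89 CPM. The enterocyte-like barcodes were far shallower in the traced sort, with medians of 1092.5 and 1049 UMIs in WT against 8412 and 6711 in Lgr5+ WT. Free RNA can make up a larger part of a shallow barcode. The part of free RNA in the levels of the enterocyte-like cells was not tested. Leaving out lineage-traced WT replicate 1 ended the calls of Axin2 in non-dividing cells (edgeR adjusted p = 0.0528) and of Ascl2 (0.117), Gkn3 (0.0733), Znrf3 (0.095) and Slc12a2 (0.442) in dividing cells; leaving out Lgr5+ WT replicate 1 ended those of Ascl2 (0.066), Znrf3 (0.0852) and Slc12a2 (0.0846) in dividing cells. Znrf3 there was also lost without lineage-traced WT replicate 2 (0.111), and Slc12a2 without Lgr5+ WT replicate 2 (0.246) or either Lgr5+ Setdb1-KO library (0.06 and 0.0596). In goblet-like cells 4 of 10 were called (30.5%), Axin2, Slc12a2 and Znrf3 higher and Gkn3 lower, and in enteroendocrine-like cells 1 of 7 (4.81%), Slc12a2, higher. That call rested on 28 and 2 UMIs in the traced libraries, whose CPM overlapped those of the Lgr5+ libraries (342 and 86.1 against 109 and 96.9), and the goblet call of Znrf3 on 19 and 3 UMIs. Without lineage-traced WT replicate 1 the Rnf43 call in enterocyte-like cells (edgeR adjusted p = 0.0899), the goblet calls of Gkn3 (0.447), Znrf3 (0.698) and Slc12a2 (0.297) and the enteroendocrine call (0.693, with its sign turned to -0.73) were lost. Leaving out Lgr5+ WT replicate 1 ended the goblet calls of Znrf3 (0.106) and Slc12a2 (0.147) and the enteroendocrine call (0.091), and leaving out Lgr5+ WT replicate 2 ended the goblet call of Gkn3 (0.106) and the enteroendocrine call (0.139).

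The effect of genotype itself differed between the sorts for 3 of the 10 genes, with a background of 7.58%. Positive differences made up 19.9% of the calls over all genes with TMM and 84.3% on library totals, where 8 of the 10 genes were called and 23.9% of all genes were. The difference, lineage-traced minus Lgr5+ sort, was 1.24 for Lgr5 (SE 0.268, edgeR adjusted p = 0.0159), 0.94 for Rnf43 (SE 0.234, adjusted p = 0.0307) and 0.86 for Axin2 (SE 0.239, adjusted p = 0.0491). For each, Setdb1-KO lay below WT in the Lgr5+ sort and above it in the lineage-traced sort. The share of undifferentiated cells among kept barcodes, free RNA included, moved the same way. It was lower in Setdb1-KO in the Lgr5+ sort (58.6% and 63.6% against 70.5% and 70.9%). In the lineage-traced sort it was higher (66.8% and 60.3% against 41.7% and 21.6%). With free-RNA barcodes left out, the lineage-traced counts were 3219 of 4578 and 6175 of 8582 against 3281 of 6676 and 839 of 1826. The class cuts followed each library's free RNA and so differed between groups. The part of this share in these differences was not tested. All 10 differences were positive, down to 0.02 for Sp5, and Olfm4, at 1.12 (SE 0.336), missed the threshold (adjusted p = 0.0681). Olfm4 was called by DESeq2 (0.000416), on library totals (0.00309), with no filter (0.0493) and without lineage-traced Setdb1-KO replicate 1 (0.0339) or 2 (0.0119). Each of the 3 calls was lost when 1 library was left out: Lgr5 without Lgr5+ WT replicate 1 (adjusted p = 0.069), Lgr5+ Setdb1-KO replicate 2 (0.0702) or lineage-traced WT replicate 2 (0.0595), and Rnf43 and Axin2 without any one of 6 libraries, up to adjusted p = 0.125 and 0.203. The Axin2 call was also lost with other limits on the genes per cell (0.0518) and without free-RNA barcodes (0.0533). Within non-dividing undifferentiated cells Rnf43 was called, 1 of 10 (difference 1.07, SE 0.238, adjusted p = 0.0297, background 2.12%), and within dividing ones none of 10 was (0.941%). That call was lost by DESeq2 (0.0836), on library totals (0.0773) and without any one of 6 libraries, the Lgr5+ ones and the lineage-traced WT ones (0.0752 to 0.189).

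The share of cells with a UMI was compared after each cell was thinned to 1000 UMIs, which left out no cell of the Lgr5+ sort and 1751 to 2496 cells of the kept barcodes below that depth in each lineage-traced library. Over all kept cells Olfm4 was seen in 57.7% and 59.1% of Lgr5+ WT cells and in 41.4% and 44.9% of Setdb1-KO cells, and in 27.2% and 23.7% of lineage-traced WT and 43.8% and 31.2% of lineage-traced Setdb1-KO cells. Before thinning these were 73.8%, 73.5%, 57.0% and 61.3% in the Lgr5+ sort, and 35.5%, 28.4%, 48.7% and 44.9% in the lineage-traced sort. Lgr5 itself was seen in few cells of any library: 2.18% (95% exact binomial interval 1.79 to 2.64) and 1.29% of Lgr5+ WT, 1.35% and 0.963% of Setdb1-KO, 1.08% and 0.704% of lineage-traced WT, and 2.02% and 1.89% of lineage-traced Setdb1-KO. Unthinned, it was seen in 11.7% and 7.53% of Lgr5+ WT cells. Of the 10 genes, 7 had lower shares in both Setdb1-KO libraries than in both WT libraries of the Lgr5+ sort, as had 20.8% of the genes tested by edgeR in that sort. Without thinning 2 genes, Olfm4 and Gkn3, did. Among traced cells 8 had higher shares in both Setdb1-KO libraries, as had 41.1% of the genes tested there, and 1, Sp5, had lower ones, as had 12.1%. The shares of Sp5 overlapped without thinning, where their difference turned to 0.0023 percentage points. With 2 libraries against 2, the exact two-sided permutation test cannot go below p = 0.33, so the shares are given without a call.

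In undifferentiated cells alone, 2 of the 10 genes had lower shares in both Setdb1-KO libraries of the Lgr5+ sort, near the 21.5% of those tested genes that had. Olfm4 was seen in 75.5% and 76.0% of WT and in 66.0% and 62.6% of Setdb1-KO cells, and Rnf43 in 3.93% and 2.94% of WT and in 2.71% and 2.13% of Setdb1-KO cells. In the lineage-traced sort 2 genes, Lgr5 and Znrf3, had higher shares without overlap, near the background of 18.9%, and Sp5 had lower ones (16.5%), with Olfm4 at 41.5% and 38.5% in WT and 49.5% and 38.1% in Setdb1-KO, overlapping. As a measure of background, enterocyte-like cells of the Lgr5+ WT libraries (median 8412 and 6711 UMIs before thinning, against 7981.5 and 6220.5 in the undifferentiated cells) showed Olfm4 in 5.86% and 7.75%. In lineage-traced WT (1554 and 1567 UMIs in the cells deep enough to thin, against 1738 and 1809.5) they showed it in 11.3% and 8.46%. Sp5 in lineage-traced WT, at 1.18% and 0.888% of undifferentiated cells against 1.16% and 1.49% of enterocyte-like cells, was at its background, and so was Rnf43 in replicate 1 (2.32% against 2.46%). Intervals and shares cover counting error only.

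**Figure D4:**
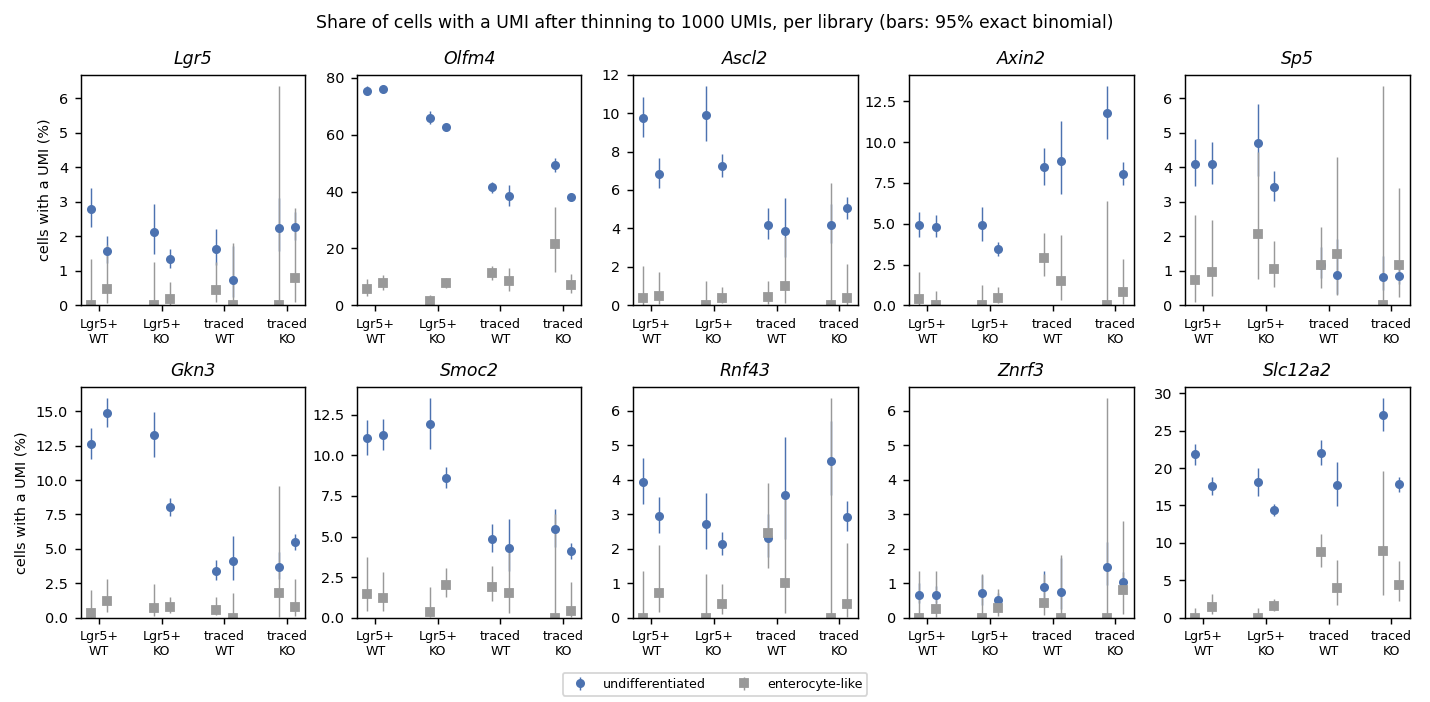
Percent of cells with at least 1 UMI of each gene after thinning to 1000 UMIs, per library. Circles are undifferentiated and squares enterocyte-like cells, and bars are 95% exact binomial intervals. Olfm4 lay at 75.5% and 76.0% in undifferentiated cells of Lgr5+ WT and at 66.0% and 62.6% in Setdb1-KO.

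The genes were also compared cell by cell among the thinned undifferentiated cells. Cells with an Olfm4 UMI more often had a UMI of 8 of the other 9 genes than cells without, in all 8 libraries, and Sp5 did so in 7. Slc12a2 was seen in 26.6% of Olfm4-positive and 7.18% of Olfm4-negative cells of Lgr5+ WT replicate 1, and in 30.9% and 15.7% in lineage-traced WT replicate 1. Gkn3 was seen in 16.2% against 1.58% and in 5.88% against 1.60% of the same cells. Lgr5-positive cells were nearly all Olfm4-positive in the Lgr5+ sort, 98.9% and 97.1% in WT and 100% and 95.9% in Setdb1-KO, from 36 to 98 such cells a library. Olfm4 was also common in the undifferentiated cells of that sort as a whole, at the shares given above. Ascl2, by contrast, was seen more often in Lgr5-positive cells in 4 of the 8 libraries, and for Lgr5 overall the share was higher in all 8 libraries for 3 of 9 partners. These cells share depth after thinning, but not class or cell cycle, and no test was made across cells. Genes outside the list were not compared this way, so these counts have no background beside them.

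Levels (log2 of CPM plus 10) were compared between genes across 52 sums of a library and a class with at least 50 cells. These sums share libraries and classes, so the correlations are descriptions. The genes named as most like another were sought among tested genes outside the list of 10. The genes most like Olfm4 were Igfbp4 (Pearson r = 0.94), Ifitm3 (0.88) and Mcm3 (0.86), and Olfm4 and Gkn3 were the closest pair of the list (0.92). Those most like Lgr5 were Slco3a1 (0.79), Pold3 (0.78) and Polr3g (0.74). Those most like Axin2 were Clca3b (0.91), Cdca7 (0.89) and Dnmt1 (0.88), and those most like Slc12a2 were Rfc1 (0.86), Clca3b (0.85) and Wls (0.82). The loosest pair was Sp5 and Znrf3 (0.01).

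Other genes of the pathway were read from 2 lists, 18 further Wnt targets and 22 receptors, signal transducers and transcription partners. In the Lgr5+ sort, 1 of the 17 targets tested was called and none of the 22 components was, where 1.34% of all genes were. The gene called was Bambi, a decoy receptor that dampens TGF-beta and BMP signals, higher in Setdb1-KO at 15.6 and 12.1 CPM against 4.44 and 5.33 CPM in WT (log2 fold change 1.499, edgeR adjusted p = 0.0149). The median log2 fold change was -0.34 over the targets and -0.10 over the components. In the lineage-traced sort, 2 of 15 targets were called, both lower, where 7.19% of all genes were called lower: Bambi (-2.15, adjusted p = 9e-05), at 4.56 and 2.92 CPM in Setdb1-KO against 10.7 and 11.5 CPM in WT, and Nkd1, a feedback inhibitor of Wnt (-1.24, adjusted p = 0.048). Of the 22 components 1 was called, the ligand gene Wnt3, lower (-0.99, adjusted p = 0.0273), a share below that background. In CPM, Nkd1 was at 1.45 and 1.05 in Setdb1-KO against 2.25 and 1.61 in WT. Wnt3 was at 3.78 and 3.25 CPM in Setdb1-KO against 5.54 and 3.96 CPM in WT. These fold changes are with TMM scaling, which moved the median of all genes in this sort from 0.54 (library totals) to 0.01. The opposite changes of Bambi in the 2 sorts gave the largest difference of the genotype effect on either list (-3.64, adjusted p = 8.6e-06), and Tnfrsf19, a receptor of the TNF family, was the other call (1.46, adjusted p = 0.0474), 2 of 17 targets and none of 22 components where 7.58% of all genes were called.

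Between the sorts in WT, 4 of 17 targets were higher and 2 lower in the traced cells with TMM scaling. Of the 22 components, 9 were higher and 2 lower, where 26.3% of all genes were called higher and 24.6% lower. On library totals 9.26% of all genes were called higher. Sox9, a factor of crypt and Paneth cells, was at 50.1 and 59.3 CPM in the Lgr5+ sort and at 106 and 86.7 CPM in the traced cells (log2 fold change 1.51, edgeR adjusted p = 0.000337). Bambi (1.87), Ccnd2 (0.96) and Ephb3 (0.81) were also higher, and Tnfrsf19 (-1.31) and Ccnd1 (-0.49) were lower. In CPM the WT sorts overlapped for Ccnd2, at 152 and 109 in the Lgr5+ sort and 185 and 125 in the traced cells. Ephb3 overlapped too, at 8.47 and 5.76 against 7.84 and 7.30 CPM. Among the components, Lgr4, the broadly expressed relative of Lgr5, rose by 1.84 (adjusted p = 9.7e-05), the transcription partner Tcf7l2 by 1.72 (adjusted p = 0.000159) and Bcl9l by 1.36, while Cby1 (-0.71) and Axin1 (-0.64) fell. In Setdb1-KO, 7 of 17 targets were higher and 1, Bambi (-1.77), lower, and 10 of 22 components were higher and 1, Porcn (-1.32), lower, where 25.0% of all genes were called higher and 25.8% lower. Of genes past no threshold in either genotype comparison, Cdca7 lay between 47.9 and 137 CPM and Csnk1a1 between 96.5 and 187 CPM over the 8 libraries.

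A separate list of 13 crypt base stem cell markers, none of them among the 10 genes, was read beside them. In the Lgr5+ sort 3 of 13 were called, all lower in Setdb1-KO: Pdgfa (log2 fold change -0.86, edgeR adjusted p = 0.0172), Clca3b (-1.07, adjusted p = 0.0347) and 2210407C18Rik (-1.24, adjusted p = 0.00758), with a median of -0.38 over the list and 1.34% of all genes called. Of the 13, 3 were called in the lineage-traced sort, where 8.73% of all genes were. Prelp was higher (1.14), at 16.7 and 13.7 CPM in Setdb1-KO against 5.33 and 3.96 CPM in WT, and 2210407C18Rik was again lower (-1.10). Fstl1 also passed the threshold, from 18 and 38 UMIs in Setdb1-KO and 1 and 3 UMIs in WT. It passed the filter on low counts through the Setdb1-KO libraries alone, so its direction is not read and no fold change is given.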

How the data were processed

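Deposited files were 10x 3′ UMI counts per gene and barcode for 8 libraries, which the authors made with Cell Ranger (version 6.1.1 in the submitters' processing notes) on mm10, before any selection of cells. Another 10 samples were not analysed here. Barcodes were kept as the opening of the results states and summed per library and class. Classes came from fixed lists of marker genes that hold none of the 10 genes; thresholds were scaled to each library's free RNA, read from barcodes with at most 50 UMIs. Beside shares of positive cells, the same thinning was made of every gene tested over all kept cells. Doublets were kept, and removed as an alternative. Sums were tested in R 4.3.3 by the quasi-likelihood method of edgeR 4.0.16, after its default expression filter and TMM scaling, with adjusted p under 0.05 as a call. The sorts were compared in 1 fit of all 8 libraries. DESeq2 1.42.0, library totals, no filter, a replicate block, other cell limits and leaving out each library were alternatives. Removal of free-RNA barcodes was added after the data were seen. On simulated data, 82.7% of genes changed by 1 on the log2 scale were recovered in the Lgr5+ sort (13501 genes) and 56.7% in the lineage-traced sort (11979 genes). Recovery was 54.5% for WT between the sorts and 25.5% for the difference of the genotype effect. The simulated counts took their spread from the trend over all genes, with none particular to a gene.

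The 10 genes, the other lists and the tests were chosen with earlier results of these data known. All 10 genes were named, with, from the 2 Wnt lists, those past the threshold and up to 4 more by mean level; likeness was given for Lgr5, Olfm4, Axin2 and Slc12a2. The crypt base markers past the threshold were named after their values were seen. Libraries held 16881518 to 81876035 UMIs. The methods state at least 2 biological replicates a group; with 2 libraries the p-values rest on few samples. Replicates of a group differed by more than sampling noise (chi-square per gene 19.5 to 70.1), so none was merged.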

Additional observations from a re-analysis of the deposited data

Results flagged for a closer look

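The effect of Setdb1-KO differed between the sorts by the interaction test of edgeR for 3 of the 10 genes over all kept cells. The difference, lineage-traced minus Lgr5+ sort on the log2 scale, was 1.24 for Lgr5 (adjusted p = 0.0159), 0.94 for Rnf43 (adjusted p = 0.0307) and 0.86 for Axin2 (adjusted p = 0.0491). In non-dividing undifferentiated cells it was 1.07 for Rnf43 (adjusted p = 0.0297). All 4 were lost when 1 of several libraries was left out, and sort, reporter allele and experiment cannot be told apart.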

How the results depend on the processing

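Over all kept cells of the Lgr5+ sort, 2 of the 10 genes were called; DESeq2 called 5, no filter on low counts 1, the replicate block 1 and 1 fit of all 8 libraries 0, and 0 to 2 were called without a library. In the lineage-traced sort 0 were called; library totals gave 9, the replicate block 3 (Lgr5, Ascl2 and Axin2) and leaving out a library 0 to 1. For the difference of the genotype effect, 3 became 8 on library totals, 5 with no filter and 0 to 6 without a library. Within classes of the Lgr5+ sort, 2 calls became 4 by DESeq2, 4 on library totals, 16 with no filter, 10 with the replicate block, 6 with doublets removed and 3 to 14 without a library. Within lineage-traced classes, 1 call became 6 on library totals, 0 by DESeq2, with no filter, with doublets removed or with a marker threshold 1.5 times as high, and 0 to 6 without a library; between the sorts in WT classes, 22 became 12 to 24. Without thinning, 2 rather than 7 genes had shares that did not overlap in the Lgr5+ sort. The replicate block lost the call of Rnf43 over all cells of the Lgr5+ sort (adjusted p = 0.087) and gave one to Olfm4 in the non-dividing undifferentiated cells of that sort (0.0191) and in the difference of the genotype effect (0.0247). Calls over all genes moved within the classes as well. With no filter they rose from 166 to 867 in non-dividing and from 88 to 725 in dividing undifferentiated cells of the Lgr5+ sort. On library totals they rose from 212 to 3012 in lineage-traced Paneth-like cells. The 22 calls between the sorts hold Axin2 and Rnf43 in enterocyte-like cells, with the limit given above. The causes were not tested.

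Signs turned for Ascl2 in the Lgr5+ sort (0.0050 with a mitochondrial limit of 10%, -0.27 to 0.22 without a library) and, in the lineage-traced sort, for Sp5 on library totals (0.081) and in its unthinned share (0.0023 percentage points). Without a library, lineage-traced values ran from -0.034 to 0.39 for Olfm4, -0.093 to 0.72 for Gkn3, -0.027 to 0.42 for Smoc2, -0.027 to 0.60 for Znrf3 and -0.21 to 0.49 for Slc12a2. Between the sorts in WT, signs turned for Rnf43 (0.000568 with the limit of 10%, 0.013 without free-RNA barcodes, -0.21 to 0.075 without a library), Lgr5 (-0.24 to 0.14 without a library) and Slc12a2 (-0.29 on library totals), and in the difference of the genotype effect for Sp5 (-0.066 with the limit of 10%, -0.14 to 0.14 without a library). Calls over all genes ran from 35 (no filter) to 527 (without Lgr5+ Setdb1-KO replicate 2) around 183 in the Lgr5+ sort, and from 586 to 3807 (library totals) around 1066 in the lineage-traced sort. Replicate numbers were not taken to pair the libraries: deviations of same-numbered libraries correlated at -0.02 between Lgr5+ WT and Setdb1-KO and at 0.51 between lineage-traced WT and Setdb1-KO, with 2 pairs each, and the labels name no shared animal or day. Depth limits Lgr5, Znrf3 and Sp5 most in the lineage-traced sort, where a library held 38 to 453 of their UMIs.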
